A study of Mus musculus with 6 samples.

Results

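The p53 target genes and the genes of the intrinsic and extrinsic cell death pathways were followed in the organ of Corti of mice that lack pejvakin. The set comprised 33 genes chosen by name, in 3 subgroups: p53 with its transcriptional targets (17 genes), the BCL2 family (10 genes) and caspases with their regulators (6 genes). Values were available for 30 of them, of 19938 genes tested. Trp53, Bax and Cdkn1a are not analysed here, the last because its probe set is annotated with 2 genes. The p53 subgroup is thus described through 14 targets, without the transcript of p53 itself.

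Total RNA came from organs of Corti, which hold the hair cells and supporting cells of the cochlea, dissected at postnatal day 15. All mice were on C57BL/6J-129/Sv as strain background, and their genotype was Pjvk-/- (knockout) or Pjvk+/+ (wild-type, written Pjvk-+/+ in the sample labels), with 3 arrays each. The labels name no Cre line or promoter and do not say how the allele was made or how many animals a sample pooled. Pjvk encodes a protein of the gasdermin family that the study links to peroxisomes and to damage by sound, and the 2 genotypes were compared at the level of transcripts.

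p53 is a transcription factor that is held at a low level by the ubiquitin ligase MDM2 and is stabilised by DNA damage, oxidative stress and other insults. It then induces genes that stop the cell cycle, repair DNA, buffer oxidants or start cell death. Death through mitochondria is set by the BCL2 family, in which pro-survival proteins restrain the pore formers BAX and BAK and are themselves bound by BH3-only proteins. Pores release cytochrome c, which activates caspase 9 on APAF1, and SMAC (Diablo), which relieves caspases of inhibition by XIAP. In the cochlea this pathway is known for the loss of hair cells after noise and ototoxic drugs.

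p53 binds a pair of copies of a short consensus repeat, and single copies in the promoters of measured members are shown because these genes include targets that lay on both sides of the comparison. The sequences are from RefSeq on GRCm38.p6, cover 30 bases on the strand of the gene, and carry the match to the p53 consensus repeat in capitals.
Mdm2, chr10:117710925-117710954, minus strand: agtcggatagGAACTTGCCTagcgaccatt
Ccng1, chr11:40755452-40755481, minus strand: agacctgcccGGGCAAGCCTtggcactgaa
Sesn1, chr10:41887256-41887285, plus strand: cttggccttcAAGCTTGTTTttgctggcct
Gadd45a, chr6:67037428-67037457, minus strand: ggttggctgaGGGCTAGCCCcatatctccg
Bmf, chr2:118544781-118544810, minus strand: cccaagtgaaGGGCTTGCCTcttgccgaat

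The windows scanned run from 250 bases before to 50 bases after a start site, and the consensus is its own reverse complement, so that a single scan covers both strands. A match was found for 5 of the 9 p53 targets with a window in the table (Mdm2, Ccng1, Sesn1, Gadd45a and Aen), for Bmf among 9 BCL2 family genes and for none of 6 genes of the caspase subgroup. Over all promoters 8.36% of 32851 windows and 9.55% of genes held one. The matches describe letters in these windows and no binding was measured here. Among the 5 p53 targets with a match, Mdm2, Ccng1 and Sesn1 had lower means in the knockout and Gadd45a and Aen higher ones, as described below.

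No member passed the test between the genotypes. Of the 30 measured members, 0 had an adjusted p under 0.05 in limma, and 7 of the 19938 genes had one, all lower in the knockout, which is 0.0351% of the genes tested. The smallest adjusted p among the members was 0.215, for Fas. In the knockout 11 members had a higher mean and 19 a lower one, where 46.1% of all genes had a higher and 53.9% a lower mean. Most members are bright, and bright genes were mostly lower. Of the 21 members above the median signal level 7 had a higher mean, where 2778 of 9969 such genes did. Below that level 4 of 9 members did, where 6416 of 9969 genes did. With quantile normalization the split was 14 higher and 16 lower, beside 51.7% of all genes higher. The median log2 fold change was -0.02 over the members and -0.01 over all genes, and the median size regardless of sign was 0.08 and 0.07. Without adjustment, 9 of 30 members (30%) had p under 0.05, against a background of 12.4% of all genes, 3 of them higher in the knockout, where the background is 5.74%, and 6 lower, where it is 6.66%. That count was 3 without knockout replicate 3, 4 without wild-type replicate 2, and 5 when knockout replicate 1 was left out, as it was without wild-type replicate 1 and without wild-type replicate 3.

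**Figure D1:**
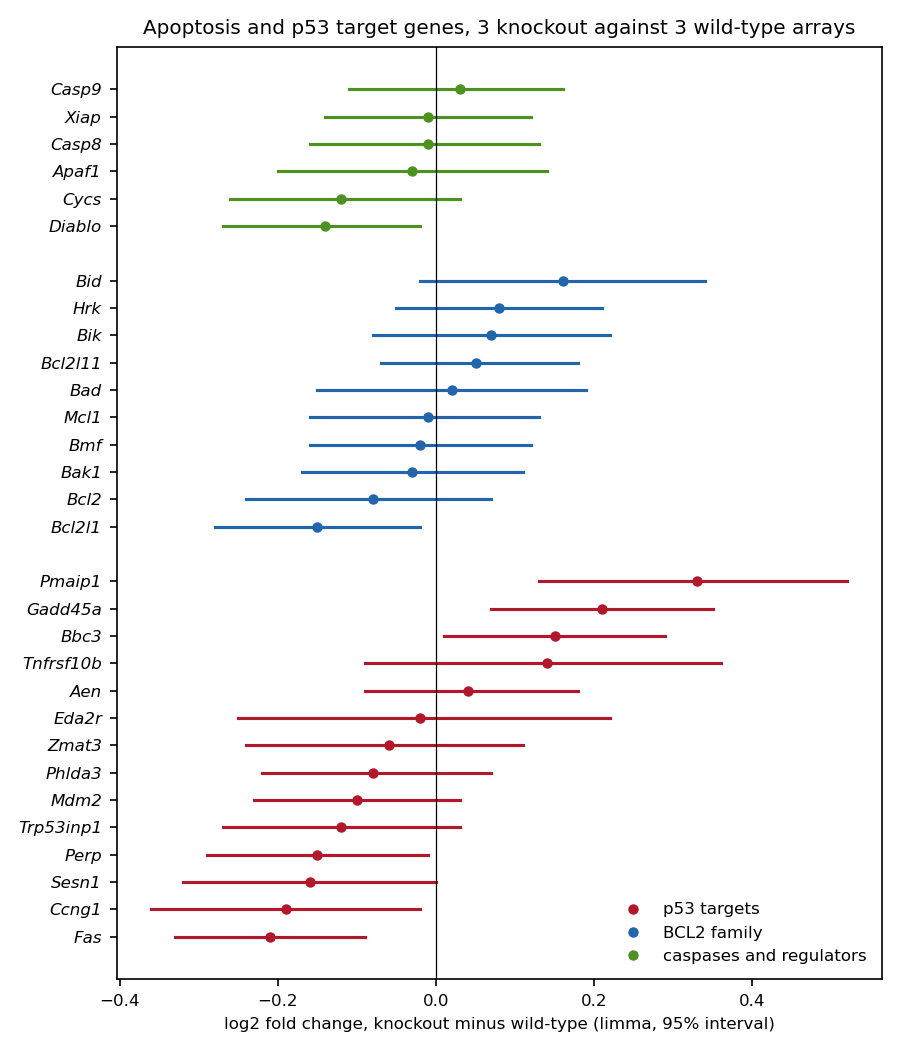
Log2 fold change (knockout minus wild-type, horizontal axis) of the 30 measured members, grouped by subgroup, with points for the limma estimate and lines for its 95% interval, n = 3 arrays per genotype. The estimates run from -0.21 for Fas to 0.33 for Pmaip1, and most intervals include 0.

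The medians of the arrays were alike, from 6.66 to 6.69 on the log2 scale, while differences between the genotypes went with signal level, as described below. The Pjvk probe set, which checks the labels, read 4.42, 4.36 and 4.21 in the knockout and 4.75, 5.06 and 4.96 in the wild-type. Its difference of -0.59 (SE 0.09) had an adjusted p of 0.105 in limma. The Pjvk signal was dim, at percentile 11.3 of the genes tested. Supporting cell markers were all brighter than the median gene (10 of 10), as were 5 of 9 measured hair cell markers. Their mean signals in the knockout arrays were 9.01 to 9.05 and 7.41 to 7.49, against 8.95 to 8.96 and 7.33 to 7.40 in the wild-type. Measured markers of skeletal muscle (6 of 6), bone (3 of 3) and dividing cells (5 of 5) had higher means in the knockout, by 0.15, 0.28 and 0.08 on average, and strial and melanocyte markers lay 0.42 lower on average (4 of 6 lower). Leukocyte markers averaged 6.96 to 7.11 in the knockout and 7.02 to 7.04 in the wild-type, and the 2 measured red cell markers 6.79 to 6.90 and 6.85 to 6.93. Neuron and Schwann cell markers averaged 11.45 to 11.52 in the knockout and 11.48 to 11.53 in the wild-type. Y-linked genes (3 of 4 measured) averaged 7.39 to 7.58 in the knockout and 7.65 to 8.05 in the wild-type, without overlap. Xist read 9.77, 9.83 and 9.96 in the knockout and 9.43, 9.36 and 9.92 in the wild-type, with overlap (difference 0.28, SE 0.14, adjusted p = 0.425). The sexes of the animals are not in the labels. The part of these differences in the results below was not tested. The Y-linked level served as a covariate, but it did not overlap between the genotypes. A fit with it therefore cannot separate its part from that of genotype. In that limma fit Pjvk itself was at -0.67 with an adjusted p of 0.91. In such bulk tissue fewer cells of a type and less RNA per cell cannot be told apart.

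The p53 targets with the clearest separation lay on both sides. Fas encodes a death receptor of the tumour necrosis factor receptor family. It read 5.65, 5.68 and 5.66 in the knockout and 5.91, 5.87 and 5.84 in the wild-type. All knockout arrays lay below all wild-type arrays, with little spread within either genotype. The log2 fold change was -0.21 (SE 0.05, 95% interval -0.33 to -0.09), and the adjusted p was 0.215. The Fas signal is dim, at percentile 26.4 of the genes tested. Genes of its level decile had a median of 0.07, of the opposite sign. Each fit with 1 array left out gave a value between -0.23 and -0.19.

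Pmaip1, which encodes the BH3-only protein NOXA, had the largest difference of the set. Its signals were 6.26, 6.17 and 6.08 in the knockout and 5.67, 5.89 and 5.97 in the wild-type. The genotypes did not overlap, but the wild-type arrays spread widely and wild-type replicate 1 stood lowest. The log2 fold change was 0.33 (SE 0.09, 95% interval 0.13 to 0.52), a 1.25-fold difference, with an adjusted p of 0.243. Adding the Y-linked level to the model as a covariate gave 0.17. Bbc3, which encodes the BH3-only protein PUMA, read 6.31, 6.25 and 6.27 in the knockout and 6.22, 6.12 and 6.05 in the wild-type. Here too the genotypes were separate, by a narrow gap, and the log2 fold change was 0.15 (SE 0.06, adjusted p = 0.386), or 0.28 with the Y-linked covariate. Both genes are in level decile 4, in which the median gene lay 0.05 higher in the knockout.

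Gadd45a, a stress sensor of cell cycle arrest and DNA repair, was another target with higher signals in the knockout. It read 8.48, 8.32 and 8.48 in the knockout and 8.21, 8.25 and 8.19 in the wild-type. The wild-type arrays were close together and all lay below the knockout arrays. The log2 fold change was 0.21 (SE 0.06, 95% interval 0.07 to 0.35, adjusted p = 0.287), where genes of its level decile had a median of -0.06. It lay between 0.18 and 0.26 under all 15 alternatives and was 0.22 with the Y-linked covariate. Fas, Pmaip1 and Gadd45a were the 3 members that kept an unadjusted p under 0.05 in limma whichever array was left out. The share of all genes that did so was not counted, so this does not show that the 3 are unusual. With the Y-linked covariate the log2 fold changes of Fas, Pmaip1 and Gadd45a were -0.16, 0.17 and 0.22. Their unadjusted p-values in that limma fit were 0.12, 0.27 and 0.101. The covariate did not overlap between the genotypes, so these p-values cannot separate its part from that of genotype.

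Ccng1, Sesn1 and Perp were further targets whose knockout arrays all lay below the wild-type arrays. Ccng1 encodes cyclin G1, a partner of MDM2 and of a protein phosphatase. It read 9.91, 9.74 and 9.64 in the knockout and 9.98, 9.95 and 9.92 in the wild-type. The genotypes were separated by the narrowest gap the deposited decimals allow, because knockout replicate 1 lay just under the wild-type arrays. Its log2 fold change was -0.19 (SE 0.07, adjusted p = 0.370), and -0.05 with the Y-linked covariate. Sesn1 encodes sestrin 1, which limits oxidants and the growth kinase mTORC1. Its values were 9.58, 9.76 and 9.68 in the knockout and 9.92, 9.81 and 9.77 in the wild-type, with a log2 fold change of -0.16 (SE 0.07, adjusted p = 0.392), and -0.08 with the Y-linked covariate. Here knockout replicate 2 came as close to the lowest wild-type array. Both genes are in the brightest level decile, where the median gene lay at -0.04.

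Perp encodes a tetraspan membrane protein of desmosomes. It read 7.07, 7.16 and 7.11 in the knockout and 7.36, 7.23 and 7.21 in the wild-type, again without overlap and with wild-type replicate 1 the highest. This gave a log2 fold change of -0.15 (SE 0.06, adjusted p = 0.375), and -0.05 with the Y-linked covariate. Mdm2, whose product degrades p53 and which p53 itself induces, read 8.43, 8.35 and 8.31 in the knockout and 8.51, 8.45 and 8.43 in the wild-type. The highest knockout array equalled the lowest wild-type array, and the log2 fold change was -0.10 (95% interval -0.23 to 0.03, adjusted p = 0.497). It was -0.05 with quantile normalization and -0.002 with the Y-linked covariate. Trp53inp1, a p53 target that acts in stress and autophagy, differed by -0.12 (95% interval -0.27 to 0.03). It stood at 0.03 with the Y-linked covariate.

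The genotypes overlapped in the remaining p53 targets. Phlda3, an inhibitor of AKT signalling, differed by -0.08 (95% interval -0.22 to 0.07; -0.17 with the Y-linked covariate), and Zmat3, an RNA-binding zinc finger protein, by -0.06 (-0.24 to 0.11). Aen, an apoptosis-enhancing nuclease, differed by 0.04 (-0.09 to 0.18), and Eda2r, a receptor for ectodysplasin A2, by -0.02 (-0.25 to 0.22). The Eda2r signal was very dim, at percentile 7.05, and its knockout arrays, from 4.07 to 4.24, lay inside the wild-type range. Tnfrsf10b, the mouse death receptor for TRAIL, read 5.96, 5.97 and 5.93 in the knockout and 5.57, 5.95 and 5.93 in the wild-type. Only wild-type replicate 1 stood apart, and the log2 fold change of 0.14 (SE 0.10) had a 95% interval of -0.09 to 0.36. Without that array it was 0.01, and with the Y-linked covariate -0.11. Of the 14 targets 5 had a higher and 9 a lower mean in the knockout, with a median of -0.07. That median was -0.02 without knockout replicate 3 and -0.01 with the Y-linked covariate.

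**Figure D2:**
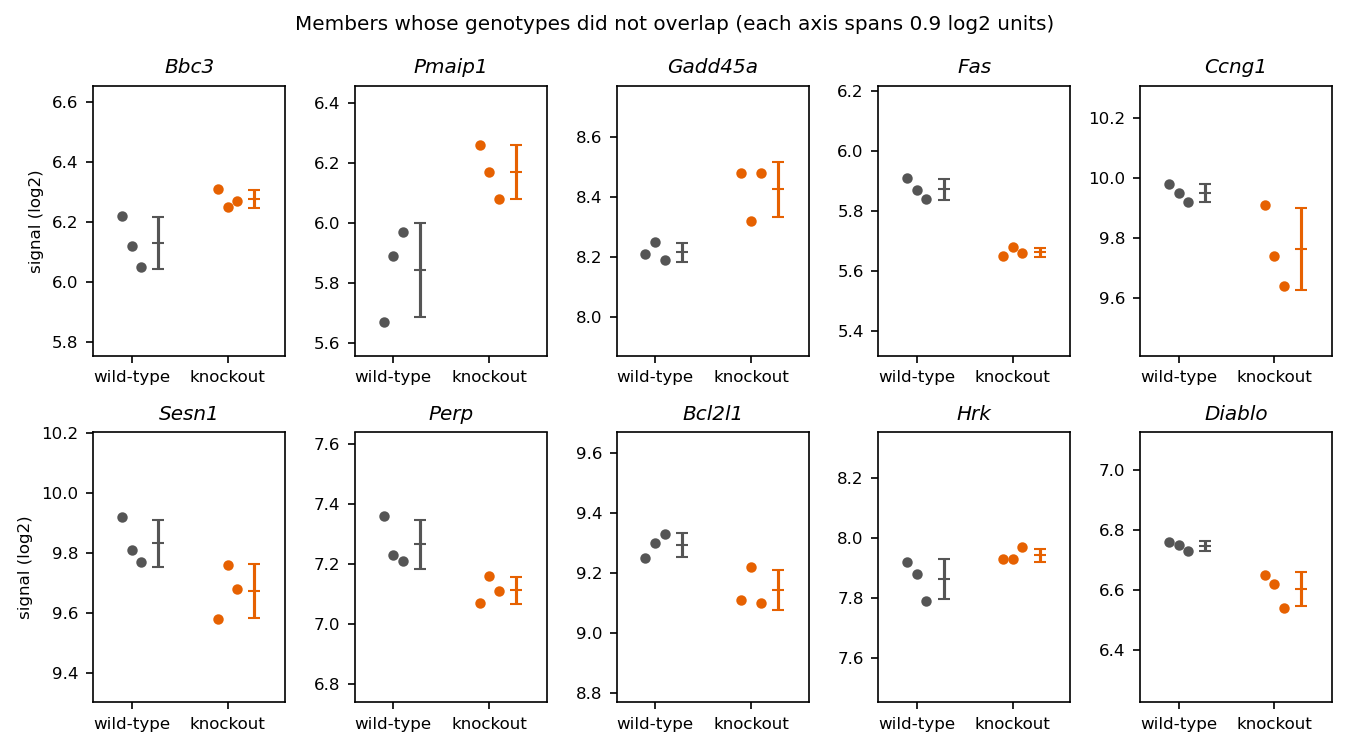
Signal on the log2 scale (vertical axis, the same span in each panel) of the 10 members whose genotypes did not overlap, with a point per array and the mean with its SD beside the points (n = 3). Bbc3, Pmaip1, Gadd45a and Hrk lie higher in the knockout and the other 6 lower, and in Ccng1, Sesn1 and Hrk the gap between genotypes is as small as the deposited decimals allow.

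The genotypes did not overlap in 10 of 30 members (33.3%), 4 higher and 6 lower in the knockout, where 17.8% of all genes did not overlap, 6.59% higher and 11.3% lower. An exact two-sided permutation test over 3 and 3 arrays gives p = 0.1 for each of these, the smallest this design allows. By subgroup the count was 7 of 14 p53 targets, 2 of 10 BCL2 family genes and 1 of 6 genes of the caspase subgroup. With 1 array left out it ran from 10 to 14 members, since fewer arrays overlap more rarely.

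In the BCL2 family the classes lay on different sides of 0, by small amounts. BH3-only genes, which carry death signals to mitochondria, had a higher mean in the knockout in 7 of 8 cases when Bbc3 and Pmaip1 are counted with them, with a median of 0.07. All 3 pro-survival genes among the members had a lower mean, with a median of -0.08. As a mean deviation from the average of all arrays, the BH3-only genes lay at 0.10, 0.02 and 0.04 in the knockout arrays and at -0.09, -0.02 and -0.05 in the wild-type arrays. The pro-survival genes lay at -0.02, -0.07 and -0.04 in the knockout and at 0.05, 0.07 and 0.01 in the wild-type. Every knockout array thus lay above every wild-type array for the first class and below for the second. The closest arrays were at 0.02 and -0.02 for the first class and at -0.02 and 0.01 for the second. How often the means of other groups of genes separate in this way was not counted. Over all genes 46.1% had a higher and 53.9% a lower mean in the knockout. With quantile normalization 8 of 8 BH3-only genes were higher and 2 of 3 pro-survival genes lower, and with the Y-linked covariate 6 of 8 and 1 of 3. The classes differed in brightness as well. The 3 BH3-only genes below the median level had a median of 0.16 and the 5 above it 0.05, and the pro-survival genes were all above it. Above that level only 2778 of 9969 genes had a higher mean in the knockout, and below it 6416 of 9969. The median of the level decile medians was -0.05 for the pro-survival genes, beside their -0.08. For the BH3-only genes it was -0.03, beside their 0.07. The part of signal level in this pattern was not tested, and the classes were set side by side after their values were known.

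Bcl2l1, which encodes the pro-survival protein BCL-XL, was the only BCL2 family gene of the 10 with p under 0.05. It read 9.11, 9.22 and 9.10 in the knockout and 9.25, 9.30 and 9.33 in the wild-type. All knockout arrays were lower, with knockout replicate 2 closest to the wild-type. The log2 fold change was -0.15 (SE 0.06, 95% interval -0.28 to -0.02, adjusted p = 0.362), and it lay between -0.20 and -0.11 under all 15 alternatives. Bcl2, the founding pro-survival gene, read 8.31, 8.22 and 8.34 in the knockout and 8.46, 8.40 and 8.26 in the wild-type. These ranges overlapped, and the difference of -0.08 (95% interval -0.24 to 0.07) was 0.05 with the Y-linked covariate. Mcl1, a pro-survival gene whose protein is short-lived, differed by -0.01 (95% interval -0.16 to 0.13).

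Bid, which links death receptors to mitochondria once caspase 8 has cleaved its product, read 6.27, 6.03 and 6.31 in the knockout and 6.02, 6.09 and 6.02 in the wild-type. Knockout replicate 2 lay among the wild-type arrays while the other knockout arrays stood above them, and the log2 fold change was 0.16 (SE 0.08, 95% interval -0.02 to 0.34, adjusted p = 0.437). Hrk, a BH3-only gene known from neurons, read 7.93, 7.93 and 7.97 in the knockout and 7.92, 7.88 and 7.79 in the wild-type. The genotypes were separate by the smallest step in the data, with a log2 fold change of 0.08 (95% interval -0.05 to 0.21; 0.16 with the Y-linked covariate). Bik differed by 0.07, Bcl2l11, which encodes BIM, by 0.05, Bad by 0.02 and Bmf by -0.02, all BH3-only genes whose genotypes overlapped. Bak1, which encodes the pore former BAK, differed by -0.03 (95% interval -0.17 to 0.11). Over the 10 family genes counted here 5 means were higher and 5 lower, with a median of 0.00 (7 higher and 3 lower with quantile normalization), and with Bbc3 and Pmaip1 added 7 of 12 were higher.

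The caspase subgroup lay close to 0 except for the proteins released from mitochondria. Diablo encodes SMAC, which binds XIAP and so relieves caspases of its inhibition. It read 6.65, 6.62 and 6.54 in the knockout and 6.76, 6.75 and 6.73 in the wild-type, so that every knockout array was lower and the wild-type arrays were tightly grouped. Diablo had a log2 fold change of -0.14 (SE 0.06, 95% interval -0.27 to -0.02, adjusted p = 0.357), and -0.08 with the Y-linked covariate. Cycs encodes cytochrome c, which also carries electrons in the respiratory chain. It read 10.66, 10.62 and 10.52 in the knockout and 10.78, 10.64 and 10.73 in the wild-type. One knockout array lay within the wild-type range, and the log2 fold change was -0.12 (95% interval -0.26 to 0.03; -0.03 with the Y-linked covariate). All 3 Cycs probe sets had a lower mean in the knockout, by -0.19, -0.14 and -0.12. Cycs has processed pseudogenes of near-identical sequence, whose share in these signals was not examined.

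The caspases themselves and their direct regulators did not separate. Casp8, the initiator caspase of death receptors, read 6.65, 6.50 and 6.48 in the knockout and 6.53, 6.55 and 6.59 in the wild-type. The genotypes overlapped and the means differed by -0.01 (95% interval -0.16 to 0.13). Casp9, the initiator caspase of the mitochondrial route, differed by 0.03 (95% interval -0.11 to 0.16). Apaf1, its activating platform, differed by -0.03 (95% interval -0.20 to 0.14), with knockout replicate 1 at 7.51 and the other knockout arrays at 7.28 and 7.35. Xiap, an inhibitor of caspases, differed by -0.01 (95% interval -0.14 to 0.12). For these 4 genes the intervals reflect only the spread between these arrays and do not show that the levels were equal. The 6 genes had 1 higher and 5 lower means and a median of -0.02 (2 higher and 4 lower with quantile normalization), which was -0.08 without knockout replicate 1.

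**Figure D3:**
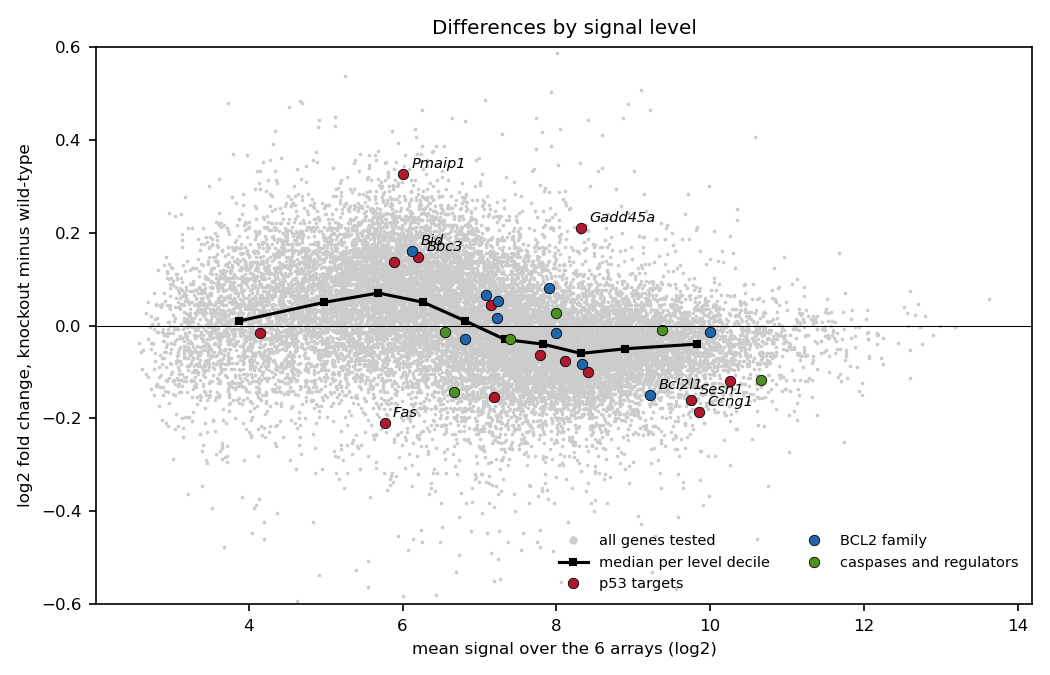
Log2 fold change (vertical axis) against the mean signal over the 6 arrays (log2, horizontal axis) for all genes tested (grey), the median per level decile (black line) and the members (coloured by subgroup). The black line lies above 0 among dimmer genes, at 0.07 in decile 3, and below 0 among brighter genes, at -0.06 in decile 8, and 22 genes lie outside the plotted range.

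The sign of a difference went with signal level across the array, as the plot of differences by level shows. Below the median level 6416 of 9969 genes had a higher mean in the knockout, and above it 2778 of 9969. Among the p53 targets the 5 dimmer genes had a median of 0.14 and the 9 brighter ones -0.10. Of the 9 members with p under 0.05, Fas, Gadd45a and Diablo had a sign opposite to the median of their decile, which was 0.07, -0.06 and 0.01. All the others lay in the direction of their deciles, but further from 0. The decile medians were 0.05 for Pmaip1 and Bbc3, -0.03 for Perp, -0.05 for Bcl2l1, and -0.04 for Ccng1 and Sesn1. The part of the level trend in the members' differences was not tested.

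Other genes of the same pathways were read from 3 wider lists, which held 64 measured genes of 73, and 0 of them passed the adjusted test, while 7 (10.9%) had an unadjusted p under 0.05, 2 higher and 5 lower in the knockout. That share lay near the background of 12.4% of all genes, and the 18.8% of wider genes whose genotypes did not overlap lay near that of 17.8%. In the wider p53 network 12 of 35 means were higher and 23 lower, with a median of -0.07. Rrm2b, a p53-induced subunit of ribonucleotide reductase, read 7.68, 7.70 and 7.72 in the knockout and 7.93, 7.92 and 7.91 in the wild-type. Its arrays were tightly grouped by genotype, and the log2 fold change was -0.22 (SE 0.05, adjusted p = 0.205), the same with the Y-linked covariate. Psrc1, a microtubule-binding p53 target, read 6.29, 6.26 and 6.37 in the knockout and 6.09, 6.08 and 5.94 in the wild-type. All knockout arrays were higher, with a log2 fold change of 0.27 (SE 0.06, adjusted p = 0.209). Rchy1, a ubiquitin ligase that acts on p53, differed by -0.22 (SE 0.07, adjusted p = 0.315), and Sesn3, a further sestrin, by -0.14 (SE 0.06, adjusted p = 0.357).

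Among 9 further BCL2 family genes 4 means were higher and 5 lower (5 and 4 with quantile normalization), with a median of -0.01. Bok, a pore-forming relative of BAX and BAK, read 7.46, 7.49 and 7.39 in the knockout and 7.15, 7.29 and 7.33 in the wild-type. The genotypes did not overlap, and the log2 fold change was 0.19 (SE 0.07, adjusted p = 0.332), or 0.09 with the Y-linked covariate. Bnip3, which acts in mitophagy under low oxygen, differed by -0.13 (SE 0.05, adjusted p = 0.373). It was -0.04 as the mean of its probe sets and -0.08 with the Y-linked covariate. Bcl2l13 and the pro-survival gene Bcl2l2 differed by -0.11 and -0.08, with overlapping genotypes.

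Among 20 further caspase and death receptor genes 11 means were higher and 9 lower (10 and 10 with arrays centred on their medians), with a median of 0.02. Tradd, an adaptor of the tumour necrosis factor receptor, read 6.93, 6.80 and 6.85 in the knockout and 7.16, 7.04 and 7.08 in the wild-type. Every knockout array lay below the wild-type arrays, with a difference of -0.23 (SE 0.06, adjusted p = 0.241). Htra2, a mitochondrial protease that can bind XIAP, differed by -0.14 (SE 0.06, adjusted p = 0.413), and by -0.25 with the Y-linked covariate. Fasl, the ligand of Fas, differed by 0.12 (SE 0.06, adjusted p = 0.434) and thus had the sign opposite to that of its receptor. Its signal was dim, at percentile 15.7. Casp14, a caspase of skin differentiation, differed by 0.14 (SE 0.08, adjusted p = 0.464). It was 0.07 without knockout replicate 3 and 0.02 with the Y-linked covariate.

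**Figure D4:**
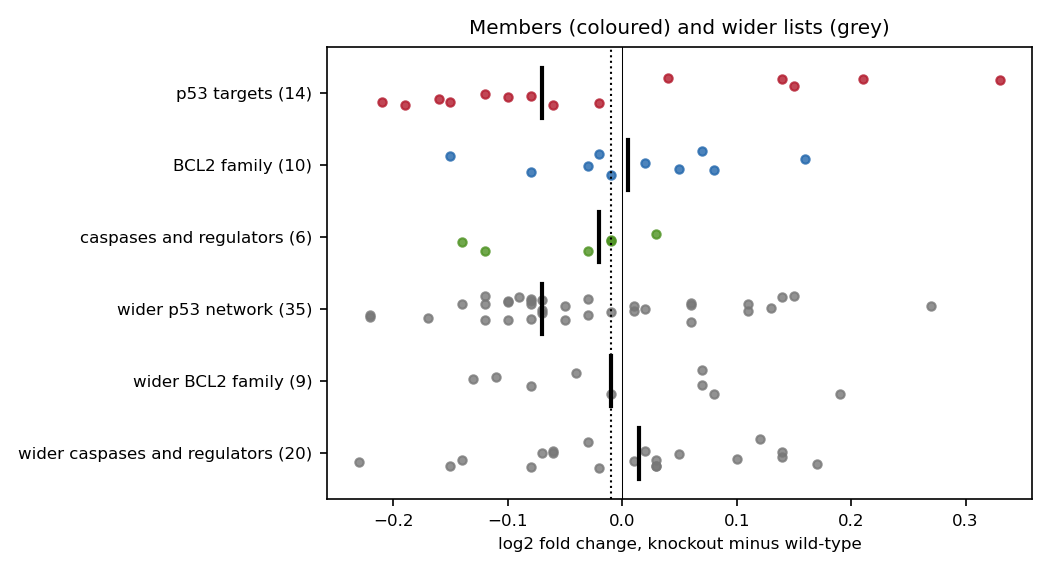
Log2 fold change (knockout minus wild-type, horizontal axis) of each measured gene in the 3 member subgroups (coloured) and the 3 wider lists (grey), with the number of genes in brackets, a bar at each median and a dotted line at the median of all genes, -0.01. The medians lie between -0.07 and 0.02, and no gene shown exceeds the 0.33 of Pmaip1.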

How the data were processed

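Total RNA (100 ng per labelling reaction) was profiled on Affymetrix mouse gene ST arrays, per the labels' protocols. The deposited values are on a log2 scale, 35557 probe sets by 6 arrays. Affymetrix Expression Console is named in the submitters' processing notes; for summarization, normalization and build, the sources used here give nothing. Probe sets were named through GEO's platform annotation (21789 with 1 symbol, 1621 with several, 12147 not listed). Symbols were updated through RefSeq for 21698. The brightest probe set was kept per gene, which left 19938 genes.

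The values were used as deposited. The genotype comparison used limma 3.58.1 (R 4.3.3; lmFit and eBayes, 4 residual and 4.59 prior degrees of freedom), with Benjamini-Hochberg adjustment over all genes and calls at 0.05. Adjusted p-values, SEs and 95% intervals come from this fit, which was tested on simulated data. The simulation planted larger changes than any member showed. It checked the calls and not the SEs or intervals. The labels name no separate animals, so the spread behind each p-value is that between these samples and may be technical only. The number of arrays limits the precision.

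Named were all measured members, Pjvk and, in each wider list, the 4 genes of smallest unadjusted p. Members and lists were chosen with earlier results of these data known. Bbc3 and Pmaip1 were counted with the p53 targets. Alternatives covered dim-gene filters, normalization, centring, probe set summaries, priors, the replicate block, the Y-linked level and arrays left out.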

Additional observations from a re-analysis of the deposited data

How the results depend on the processing

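No member and no gene of the wider lists passed the adjusted test under any of the 15 alternatives, and the smallest adjusted p of a member among them was 0.134. Over all genes the main analysis called 7. The count was 20 and 45 with genes at or above the 25th percentile and the median, 18 with arrays centred on their medians, 1 with all probe sets fitted, 112 with an intensity trend and robust priors, 1 with the replicate block, 0 with the Y-linked covariate, and 2 to 6 with 1 array left out. Members with an unadjusted p under 0.05 in limma numbered 9, against 4 with quantile normalization, 1 (Bbc3) with the Y-linked covariate and 3 to 7 with 1 array left out. The fit of genes at or above the median held only 21 members, and 5 of these had p under 0.05. Bbc3, Pmaip1, Fas and Diablo, which had p under 0.05 in the main fit, were removed by that filter. Because the Y-linked level did not overlap between the genotypes, the counts with that covariate cannot separate its part from that of genotype. The replicate numbers come from the sample titles, and whether same-numbered arrays belong together is not known here. Deviations from the genotype means correlated at 0.076, 0.019 and -0.009 between same-numbered arrays, and from -0.106 to 0.093 between the others. These correlations cannot settle the question. With the replicate block 7 members had p under 0.05 in limma. The median of the p53 targets was -0.01 with the Y-linked covariate and -0.09 to -0.02 with 1 array left out, and that of the caspase subgroup -0.08 to -0.01. Pjvk, at -0.59, passed with the intensity trend and robust priors (-0.59, adjusted p = 0.0207; 0.0207 to 0.91 over its alternatives).

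Of 30 members 17 kept their sign throughout. The sign turned with the Y-linked covariate for Trp53inp1 (0.03), Tnfrsf10b (-0.11), Bcl2 (0.05), Mcl1 (0.01), Bad (-0.08) and Xiap (0.08), and with quantile normalization for Mcl1 (0.03), Bmf (0.02) and Xiap (0.02). With 1 array left out Zmat3 ran from -0.12 to 0.01, Eda2r from -0.09 to 0.10, Mcl1 from -0.06 to 0.03, Bad from -0.04 to 0.06, Bmf from -0.05 to 0.02, Casp8 from -0.07 to 0.02, Casp9 from -0.003 to 0.06, Apaf1 from -0.09 to 0.02, Xiap from -0.04 to 0.02 and Bak1 from -0.07 to 0.00. None of these was called, and the cause was not tested.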

Other observations

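Of the measured members, 3 lie on the chromosome of Pjvk. Bmf lies 461, Bcl2l11 605 and Bcl2l1 815 genes from it among the genes tested, in the order of GRCm38.p6, and they differed by -0.02, 0.05 and -0.15 on the log2 scale. DNA of the parental strain around an altered gene can stay with it through breeding, and variants under the probes of these genes were not assessed here.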
